A study of Mus musculus with 10 samples.

Results

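Hand2os1, 1010001N08Rik and Tbx3os1 are long non-coding RNA genes that lie head to head with Hand2, Gata6 and Tbx3, 3 genes that encode transcription factors of the developing heart. They were taken by their symbols in GENCODE release M21 on GRCm38, with every transcript listed for them in the deposited table. They are 3 of 14787 genes and assembled loci and hold 47 of 20741 transcripts, of which 37 belong to Hand2os1, 4 to 1010001N08Rik and 6 to Tbx3os1. The genes were chosen by their FPKM in the 2 genotypes, with the difference already known. Their knockout and wild-type values are therefore given as a description, with no test.

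The samples were left ventricular tissue of C57BL/6 mice, taken 6 weeks after TAC (transverse aortic constriction), surgery that narrows the aorta and so puts the left ventricle under pressure. The 4 Sirt5 knockout samples (replicates 2, 3, 4 and 5) were compared with 6 wild-type samples (replicates 1, 3, 4, 5, 6 and 7), and all 10 had TAC. SIRT5 is a mitochondrial sirtuin that takes succinyl, malonyl and glutaryl groups off lysine, and the series asks how it bears on hypertrophy of the heart. The series' design text speaks of male mice of 5 weeks, of a conventional CRISPR-Cas9 knockout and of a tamoxifen-inducible Cre-ERT2 system. Tamoxifen was given at 1 mg a day for 10 days, with 4 weeks between the last dose and TAC. It leaves unsaid which mice carried the Cre, and under which promoter. Sham-operated mice were not analysed here. The labels do not tie samples to animals, so spreads and p-values concern these samples and may be technical in part.

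HAND2 is a basic helix-loop-helix factor needed for growth of the right ventricle and the outflow tract, GATA6 is a zinc finger factor of the heart and of endoderm, and TBX3 is a T-box repressor that keeps the cells of the conduction system from becoming working muscle. Long non-coding genes often start beside such factors and are read away from them from a shared promoter region. Hand2os1, also known as Upperhand, is the best known of the 3, and in mouse embryos its transcription has been reported to be needed for Hand2 expression in the heart. RefSeq lists 1010001N08Rik as Gata6os, with the synonym LncGata6, a name used for a transcript studied in mouse intestinal stem cells.

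All 3 genes lie on the minus strand of GRCm38 and their partners on the plus strand. Hand2os1 (ENSMUSG00000100510.7) occupies positions 57281117 to 57324233 of chromosome 8 and overlaps Hand2, at 57320983 to 57324633, by 3251 bases. 1010001N08Rik (ENSMUSG00000097222.2) runs over positions 10987944 to 11052567 of chromosome 18 and overlaps Gata6, which starts at 11052064, by 504 bases. Tbx3os1 (ENSMUSG00000087516.7) spans positions 119570130 to 119671365 of chromosome 5 and overlaps Tbx3, which starts at 119670669, by 697 bases. The table held 0 transcripts of Hand2, Gata6 or Tbx3, so no level of a partner could be set beside its opposite gene.

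**Figure D1:**
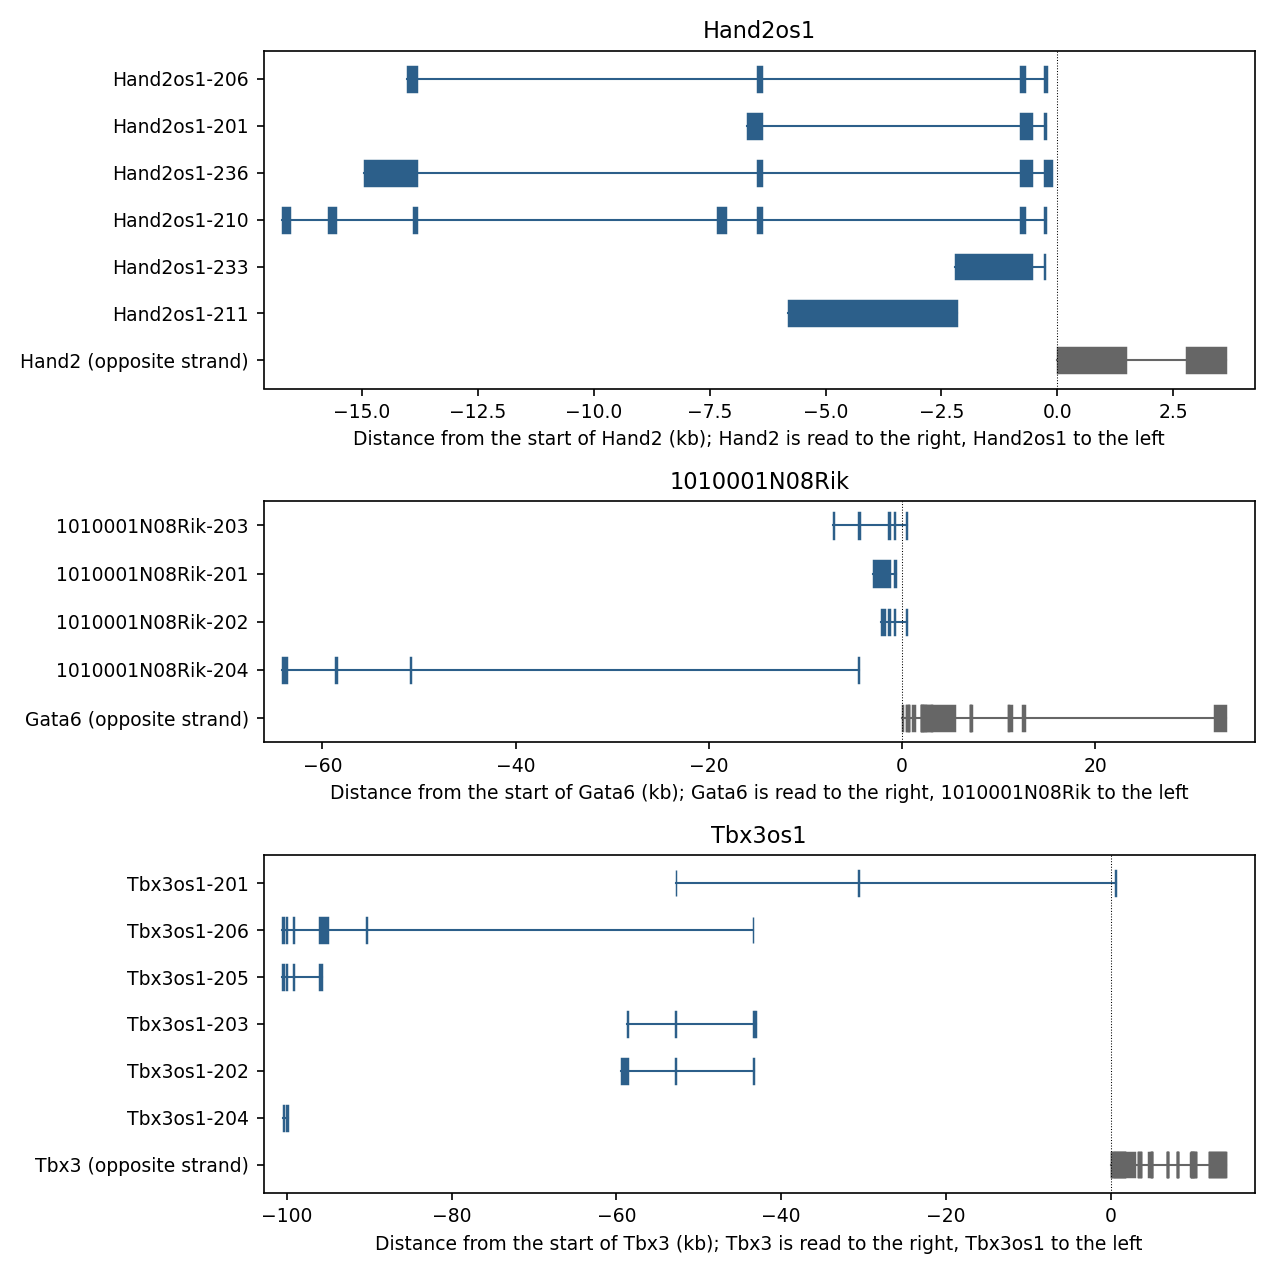
Exons (boxes) and introns (lines) of transcripts of each gene, by distance in kb from the annotated start of the partner, which is drawn in grey on the opposite strand; for Hand2os1, the 6 transcripts shown are a selection of the 37. Hand2os1-206, the most abundant transcript of its gene, starts 216 bases from Hand2, while Tbx3os1 transcripts other than Tbx3os1-201 start 43076 bases or more from Tbx3.

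2 stretches of sequence show where the Hand2os1 and Tbx3os1 transcripts lie. The first is the start region of Hand2os1, the RefSeq promoter window on GRCm38.p6 clipped at the first base of Hand2, at chr8:57320810-57320982 on the minus strand. Most of the abundant Hand2os1 transcripts begin in it or just downstream of it. Its capitals mark AGATAA, a core motif of GATA factors.
Hand2os1 start region: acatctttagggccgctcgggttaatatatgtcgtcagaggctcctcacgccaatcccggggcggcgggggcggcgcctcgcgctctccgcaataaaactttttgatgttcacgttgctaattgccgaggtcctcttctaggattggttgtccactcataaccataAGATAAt
The second is exons 2 and 3 of Tbx3os1-201, the most abundant Tbx3os1 transcript, taken from the GRCm38 genome by the GENCODE exon positions. These exons lie outside Tbx3, unlike exon 1. Exon 2 (111 bases) is at 119639994 to 119640104 and exon 3 (56 bases, in capitals) at 119617901 to 119617956 of chromosome 5.
Tbx3os1-201 exons 2 and 3: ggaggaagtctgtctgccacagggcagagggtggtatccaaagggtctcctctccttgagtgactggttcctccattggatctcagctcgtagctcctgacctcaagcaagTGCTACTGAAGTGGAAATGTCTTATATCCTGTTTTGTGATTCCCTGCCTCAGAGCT

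RefSeq promoter windows, which run from 250 bases before to 50 after a gene's start, were found for 2 of the 3 genes, Hand2os1 and Tbx3os1. The AGATAA of the Hand2os1 window begins 43 bases after the RefSeq start, and 11.2% of 32817 windows hold these letters on either strand. The T-box letters AGGTGT, present in 13.7% of windows, and the E-box letters CANNTG, present in 72.3%, had 0 matches in the Hand2os1 window. The Tbx3os1 window had 0 matches to any of these 3 motifs. Both strands were searched. Both windows had a GC content of 57.3%, against a median of 52.7% over all windows. The Hand2os1 window held 23 CG dinucleotides and the Tbx3os1 window 14, against a median of 7. A match is a run of letters and not a site shown to be bound.

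Libraries held an estimated 22700000 to 25800000 fragments in the knockout samples and 24700000 to 29800000 in the wild-type samples. Knockout replicate 5 was unlike the rest. Malat1, an abundant nuclear RNA, had 951 FPKM there and 58.4 to 81.8 FPKM elsewhere. FPKM are fragments per kilobase of transcript and 1000000 mapped fragments. Rmrp, the RNA of a mitochondrial RNA processing enzyme, was listed at 0 in knockout replicate 5 and in wild-type replicates 3, 5 and 6, and at 824 to 1430 FPKM in the other 6 samples. The labelled tissue could be checked against few markers, since the table holds long non-coding RNA. Mhrt, the cardiomyocyte transcript opposite Myh7, was the 1 of 5 cardiomyocyte markers in the table and had 0.835 to 4.63 FPKM in knockout and 1.22 to 5.78 FPKM in wild type.

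Hand2os1 was by far the most abundant of the 3. Its transcripts summed to 19.6, 20.8, 22.0 and 15.3 FPKM in knockout replicates 2, 3, 4 and 5, against a lowest value of 18.1, a median of 23.6 and a highest of 33.4 FPKM in the 6 wild-type samples. The genotypes overlapped, because wild-type replicate 3 lay below 3 of the knockout samples. The means were 19.4 ± 2.90 FPKM in knockout and 24.1 ± 5.16 FPKM in wild type (SD, n = 4 and 6), a difference of -0.29 (SE 0.158) on the log2(FPKM + 1) scale. On this scale the changes of weakly expressed genes come out too small. With a mean of 22.3 FPKM over all samples, Hand2os1 ranked 9 of 13420 annotated genes in the table. Without knockout replicate 5, the lowest of all 10 samples, the knockout mean was 20.8 ± 1.19 FPKM and the log2 difference -0.18.

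1010001N08Rik, opposite Gata6, differed most between the genotypes. It had 1.50, 1.21, 1.34 and 0.768 FPKM in knockout replicates 2, 3, 4 and 5, against a lowest value of 1.98, a median of 2.44 and a highest of 2.60 FPKM in wild type. The genotypes did not overlap. The means were 1.20 ± 0.313 FPKM in knockout and 2.36 ± 0.234 FPKM in wild type (SD, n = 4 and 6), a ratio of 0.509 and a log2 difference of -0.62 (SE 0.116). The 6 wild-type samples spread little, with a coefficient of variation of 26.0% in knockout and 9.9% in wild type. Knockout replicate 5 was again the lowest sample, and without it the knockout mean was 1.35 ± 0.145 FPKM and the log2 difference -0.52. In these whole-tissue samples, fewer cells of a type and less RNA per cell cannot be told apart.

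Tbx3os1 was expressed at about the level of 1010001N08Rik. It had 1.37, 1.27, 1.34 and 0.893 FPKM in knockout replicates 2, 3, 4 and 5, against a lowest value of 1.46, a median of 1.88 and a highest of 2.41 FPKM in wild type. The genotypes were again apart, but the gap between the highest knockout and the lowest wild-type sample was narrow. The means were 1.22 ± 0.221 FPKM in knockout and 1.91 ± 0.340 FPKM in wild type (SD, n = 4 and 6), a ratio of 0.638 and a log2 difference of -0.39 (SE 0.102). Without knockout replicate 5 the knockout mean was 1.33 ± 0.0522 FPKM and the log2 difference -0.31. After median-of-ratios scaling the highest knockout value was 1.42 and the lowest wild-type value 1.34, and after quantile normalization they were 1.51 and 1.41, so the genotypes overlapped under both.

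All knockout samples therefore lay below all wild-type samples in 2 of the 3 genes, a pattern that 2.14% of the 1122 genes and loci with a mean of at least 1 FPKM showed. These genes were chosen with that pattern known, so nothing is read from the count. In the limma fit over all 1122 genes and loci, 1 (0.0891%) was lower and 1 (0.0891%) higher in knockout at an adjusted p below 0.05 (Benjamini-Hochberg, two-sided). No test result is given for the 3 genes themselves. At an unadjusted p below 0.05, 96 were lower and 35 higher. The median log2 difference over all tested was -0.03.

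**Figure D2:**
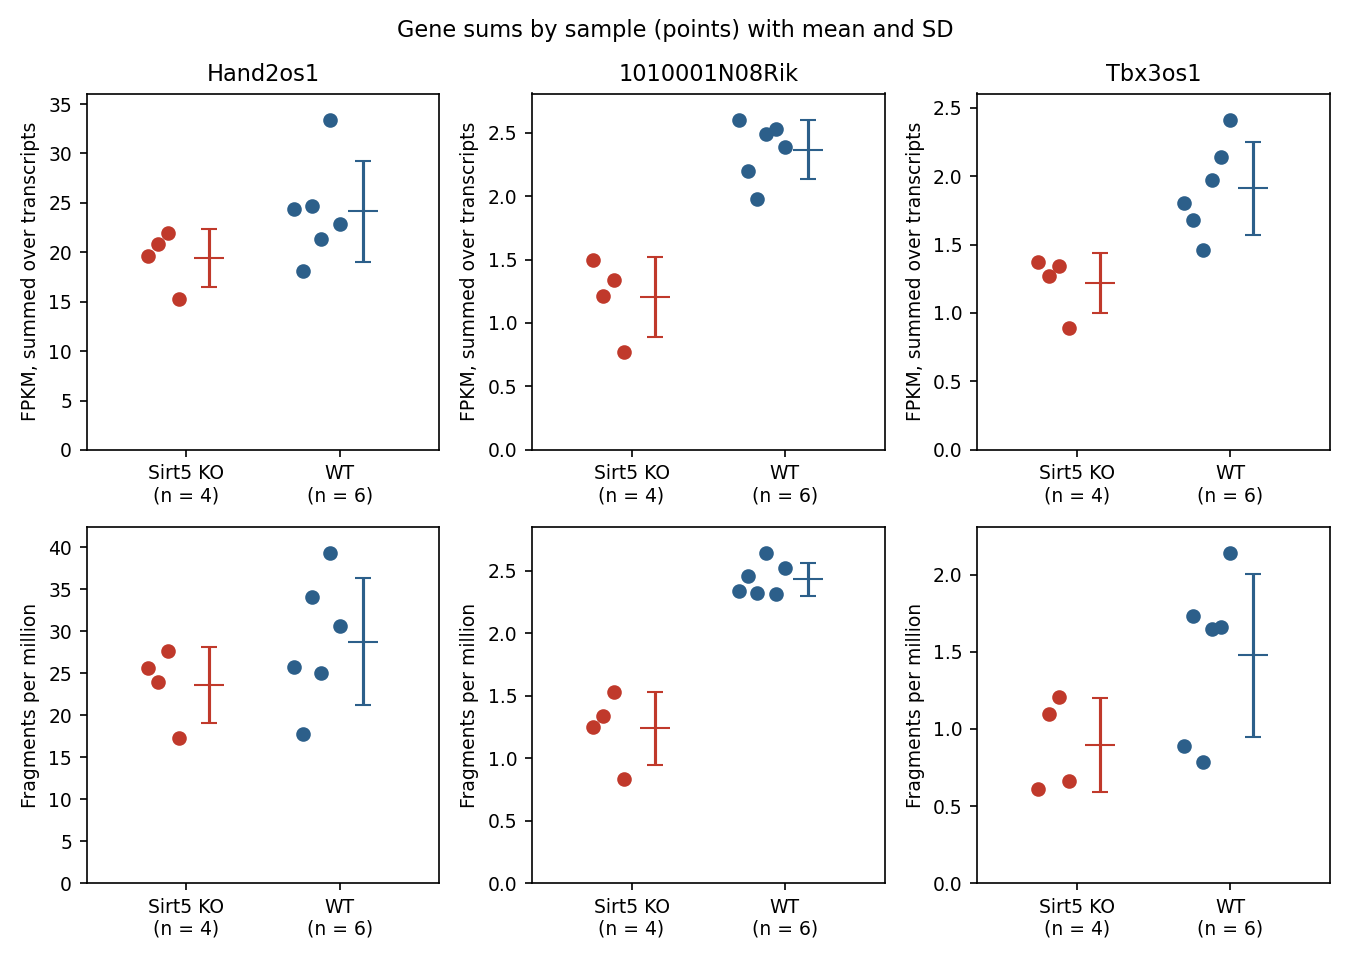
Each point is 1 sample, with knockout left of wild type and bars for the mean ± SD; the upper panels give the summed FPKM of each gene and the lower panels its fragments per 1000000 mapped fragments. Knockout samples lie at or below 1.50 FPKM and wild-type samples at or above 1.98 FPKM for 1010001N08Rik, while Hand2os1 overlaps on both scales and Tbx3os1 overlaps in the lower panel.

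An FPKM sum depends on how the authors' program divided fragments between isoforms of unequal length. Each FPKM was therefore multiplied by its transcript's length in kb and summed, which gives the fragments of a gene per 1000000 mapped fragments. This measure was chosen after the data were seen. On it, 1010001N08Rik had 1.25, 1.34, 1.53 and 0.835 in knockout replicates 2, 3, 4 and 5, against 2.31 to 2.64 in wild type, and the genotypes still did not overlap. The estimated number of fragments behind these values was 20 to 35 a sample in knockout and 61 to 69 in wild type. Among annotated genes with a mean of at least 1 FPKM, on this measure knockout lay wholly below wild type in 1.92% and wholly above in 0.383%.

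Tbx3os1 did not keep its separation on this measure. It had 0.612, 1.10, 1.21 and 0.665 in knockout replicates 2, 3, 4 and 5, against a lowest value of 0.787, a median of 1.65 and a highest of 2.14 in wild type. Wild-type replicates 1 (0.891) and 4 (0.787) lay among the knockout samples. The means were 0.896 ± 0.301 in knockout and 1.48 ± 0.527 in wild type (SD, n = 4 and 6). These values rest on an estimated 16 to 27 fragments a sample in knockout and 23 to 53 in wild type. Hand2os1 overlapped on this measure too, with means of 23.6 ± 4.51 in knockout and 28.7 ± 7.59 in wild type (SD, n = 4 and 6) from an estimated 409 to 660 and 451 to 1118 fragments a sample.

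The mean length of the Tbx3os1 transcripts, weighted by FPKM, ran from 447 to 899 bases in knockout and from 496 to 1029 bases in wild type. It was shortest in knockout replicate 2 (447 bases) and in wild-type replicates 1 (496 bases) and 4 (540 bases). The same samples had almost none of Tbx3os1-206, a 6-exon transcript of 1787 bases that is the longest of the gene. Tbx3os1-206 had 0.00998, 0.363, 0.487 and 0.0285 FPKM in knockout replicates 2, 3, 4 and 5, and in wild type 0.00782 FPKM at the lowest, 0.636 at the median and 0.786 at the highest. Its samples fell into a low set of 4 (knockout replicates 2 and 5, wild-type replicates 1 and 4) and a high set of 6, and both sets held both genotypes. Tbx3os1-205, which shares distal exons with it, had 0.180 and 0.242 FPKM in knockout replicates 2 and 5 and 0.433 and 0.442 FPKM in wild-type replicates 1 and 4. In knockout replicates 3 and 4 and wild-type replicates 3 and 5, Tbx3os1-205 was listed at 0. Wild-type replicates 6 and 7 held both, with 0.0904 and 0.356 FPKM of Tbx3os1-205 and 0.606 and 0.786 FPKM of Tbx3os1-206. The 2 transcripts therefore did not simply replace each other.

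Tbx3os1-201 begins 696 bases inside Tbx3 and is the transcript whose exons are printed above. It made up 48.2% of the gene's mean FPKM in knockout and 50.9% in wild type. It had 0.757, 0.635, 0.615 and 0.341 FPKM in knockout replicates 2, 3, 4 and 5, against a lowest value of 0.648, a median of 1.05 and a highest of 1.33 FPKM in wild type. Only knockout replicate 2 reached into the wild-type range. The distal transcripts Tbx3os1-204, Tbx3os1-205 and Tbx3os1-206 together had 0.328 ± 0.128 FPKM in knockout and 0.709 ± 0.230 FPKM in wild type. Tbx3os1-202 and Tbx3os1-203, which start 43287 and 43076 bases from Tbx3, together had 0.303 ± 0.0811 FPKM in knockout and 0.228 ± 0.0803 FPKM in wild type (SD, n = 4 and 6). The middle transcripts thus did not share the direction of the gene sum, and all 3 sets overlapped between genotypes.

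The 4 transcripts of 1010001N08Rik each had a lower mean in knockout, and each overlapped between genotypes. 1010001N08Rik-203, the most abundant, had 0.949, 0.197, 0.608 and 0 FPKM in knockout replicates 2, 3, 4 and 5, against a lowest value of 0.582, a median of 0.787 and a highest of 1.07 FPKM in wild type. Knockout replicates 2 and 4 were inside the wild-type range. The retained-intron transcript 1010001N08Rik-201 had 0.325 ± 0.138 FPKM in knockout and 0.638 ± 0.147 FPKM in wild type, and its share of the gene was 15.7 to 37.9% in knockout and 16.7 to 37.5% in wild type. A retained-intron transcript keeps a stretch that other isoforms splice out.

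1010001N08Rik-202 and 1010001N08Rik-203 start inside Gata6, and the other 2 transcripts start beyond it. Together the first set had 0.651 ± 0.357 FPKM in knockout and 1.33 ± 0.456 FPKM in wild type, a ratio of 0.490. 1010001N08Rik-201 and 1010001N08Rik-204 together had 0.553 ± 0.228 FPKM in knockout and 1.04 ± 0.246 FPKM in wild type (SD, n = 4 and 6), a ratio of 0.534. Neither set separated the genotypes, although the sum of all 4 transcripts did.

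**Figure D3:**
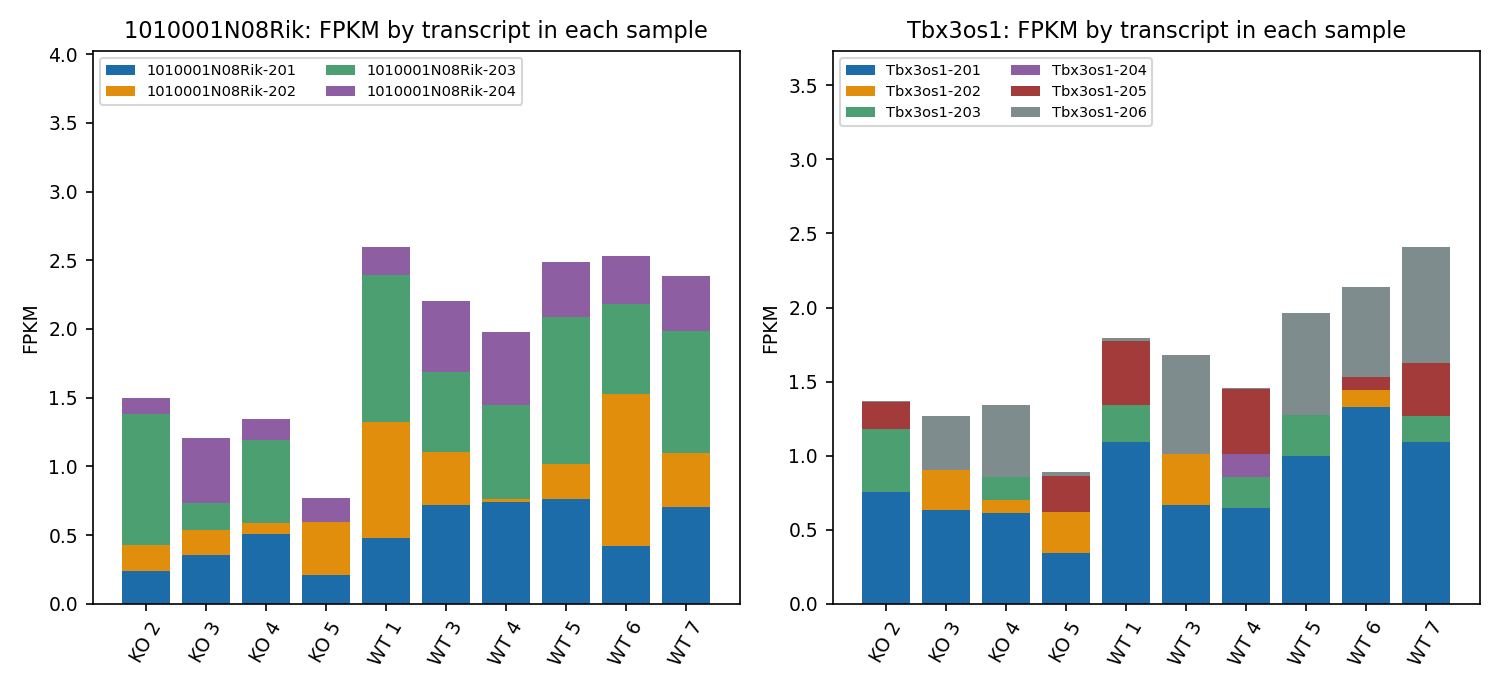
Stacked bars give the FPKM of each transcript of 1010001N08Rik and Tbx3os1 in each sample, knockout samples left of wild-type samples. Bars for 1010001N08Rik reach 0.768 to 1.50 FPKM in knockout and 1.98 to 2.60 FPKM in wild type, and the make-up of a bar changes from sample to sample within a genotype.

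Of the 37 Hand2os1 transcripts, 33 were above 0 in a sample, 16 were above 0 in every sample and 25 had a mean of at least 0.1 FPKM. A lower mean in knockout was seen for 21 and a higher mean for 12. The most abundant was Hand2os1-206, a 4-exon transcript of 513 bases that begins 216 bases from Hand2. It had 2.28, 2.54, 2.59 and 1.16 FPKM in knockout replicates 2, 3, 4 and 5, against a lowest value of 1.99, a median of 4.45 and a highest of 5.22 FPKM in wild type. Wild-type replicate 7 lay below 3 of the knockout samples, and the other 5 wild-type samples lay above all of them. Its share of the gene's mean FPKM was 11.0% in knockout and 16.6% in wild type.

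Of the 25 Hand2os1 transcripts with a mean of at least 0.1 FPKM, 16 had a lower mean in knockout, as Hand2os1-206 did. Next in abundance, Hand2os1-201 had 2.05 ± 0.755 FPKM in knockout and 3.13 ± 1.23 FPKM in wild type (SD, n = 4 and 6), with overlap. Some others did not follow Hand2os1-206 or differed little. The retained-intron transcript Hand2os1-236 had 3.68, 1.78, 1.43 and 1.75 FPKM in knockout replicates 2, 3, 4 and 5, against a lowest value of 0, a median of 0.915 and a highest of 4.02 FPKM in wild type. Its wild-type samples covered the whole knockout range. The 7-exon Hand2os1-210 had 1.52 ± 0.986 FPKM in knockout and 1.70 ± 0.351 FPKM in wild type (SD, n = 4 and 6). Hand2os1-202, a minor transcript, had 0.523 ± 0.164 FPKM in knockout and 0.208 ± 0.176 FPKM in wild type (SD, n = 4 and 6), the opposite direction to the gene sum, and its values overlapped.

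The 18 retained-intron transcripts of Hand2os1 held about as much of the gene as the 19 transcripts of antisense type. Retained-intron transcripts summed to 10.6 ± 2.83 FPKM in knockout and 13.3 ± 4.33 FPKM in wild type, and antisense-type transcripts to 8.89 ± 0.989 FPKM in knockout and 10.8 ± 3.25 FPKM in wild type (SD, n = 4 and 6). The retained-intron share averaged 53.6% in knockout, with a range of 47.3 to 62.6%, and 54.4% in wild type, with a range of 34.7 to 73.3%. The share varied more among wild-type samples than it differed between the genotype means.

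**Figure D4:**
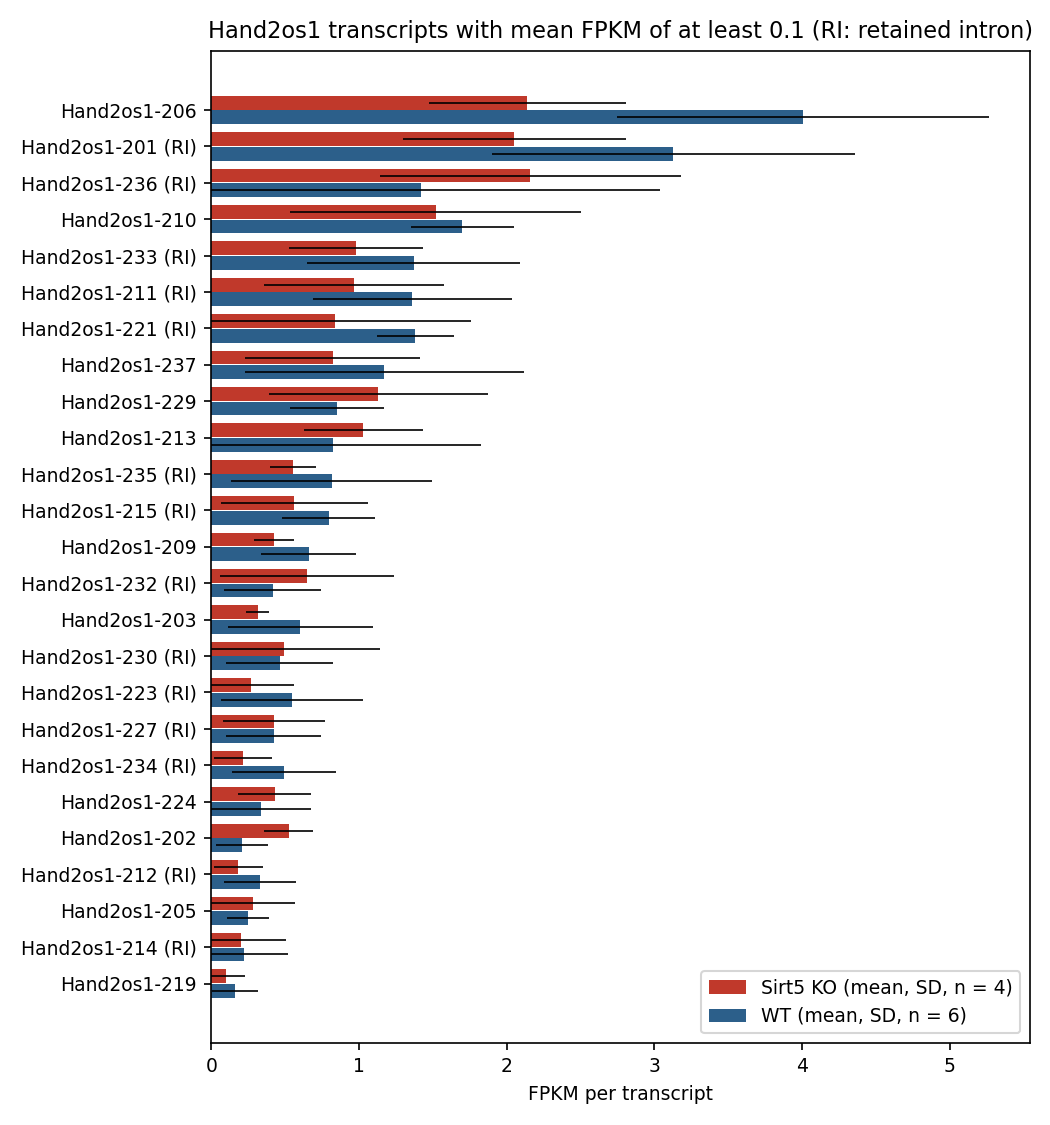
Mean FPKM ± SD of the 25 Hand2os1 transcripts with a mean of at least 0.1 FPKM, with the knockout bar above the wild-type bar (n = 4 and 6); RI marks retained-intron transcripts. Hand2os1-206 shows the widest gap between means, 2.14 FPKM in knockout and 4.01 FPKM in wild type, while Hand2os1-236 is higher on average in knockout.

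Across the 47 transcripts, 30 had a lower and 13 a higher mean in knockout, and 4 were listed at 0 in all 10 samples. Not 1 of the 47 had every knockout sample below or above every wild-type sample. Over all 4182 transcripts of the table with a mean of at least 0.1 FPKM, knockout lay wholly below wild type in 1.12% and wholly above in 0.526%. Of the 47, 34 had such a mean. At 1010001N08Rik and Tbx3os1 the genotypes were thus apart in the summed FPKM, for Tbx3os1 not on every scale, and in no single isoform. With shares this low, nothing is read from the lack of a separate isoform. StringTie divides fragments between overlapping isoforms by estimation, so a single isoform is less certain than its gene's total.

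The libraries marked the strand, but no source used here says whether the authors' program used it, so fragments of a gene and of its partner may not have been told apart where exons overlap. Of the 47 transcripts, 6 overlap an exon of the partner. Hand2os1-207 (400 bases) and Hand2os1-208 (286 bases) lie wholly opposite Hand2 exons, and both were listed at 0 in all 10 samples. Hand2os1-213 has 246 of 1171 bases opposite Hand2 exons and had 1.03 ± 0.401 FPKM in knockout and 0.824 ± 1.00 FPKM in wild type (SD, n = 4 and 6). At Gata6 the overlap is 93 of 728 bases in 1010001N08Rik-202 and 56 of 571 bases in 1010001N08Rik-203, and at Tbx3 it is 115 of 282 bases in Tbx3os1-201.

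In summed FPKM, 1010001N08Rik and Tbx3os1 ordered the low samples alike. In both, knockout replicate 5 was lowest, followed by knockout replicates 3, 4 and 2 and then wild-type replicates 4 and 3. For Hand2os1 the lowest was also knockout replicate 5, but wild-type replicate 3 came next. 1010001N08Rik and Tbx3os1 were chosen with knockout known to lie below wild type, so that choice fixes the knockout samples coming first. For Tbx3os1, knockout replicates 3, 4 and 2 lay close, at 1.27, 1.34 and 1.37 FPKM. With each FPKM multiplied by transcript length, the orders differed. Tbx3os1 was then lowest in knockout replicate 2 (0.612) and 1010001N08Rik in knockout replicate 5 (0.835). In summed FPKM, the ratio of Hand2os1 to 1010001N08Rik within a sample was 13.1 to 19.98 in knockout and 8.22 to 13.2 in wild type. The ratio of Hand2os1 to Tbx3os1 was 14.4 to 17.2 in knockout and 9.50 to 16.9 in wild type. The ratio of 1010001N08Rik to Tbx3os1 was 0.861 to 1.09 in knockout and 0.989 to 1.45 in wild type, so the ratios of all 3 pairs overlapped between genotypes.

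Whether the loci vary together within a genotype was tested in the 6 wild-type samples, since the 4 knockout samples were too few. On log2(FPKM + 1), 1010001N08Rik and Tbx3os1 had a Pearson r of 0.66 (exact permutation p = 0.158, adjusted over the 3 pairs 0.475) and a Spearman rho of 0.49 (exact permutation p = 0.356, adjusted 0.919). Without wild-type replicates 4 and 3, which lay farthest from the median of 1010001N08Rik, r was -0.88 over 4 samples. Leaving out the farthest samples removes much of the spread, so r over the 4 left says little. Without replicate 4 alone r was 0.23, and without replicate 3 alone 0.62. Hand2os1 and 1010001N08Rik had an r of 0.32 (exact permutation p = 0.532, adjusted 0.636) and a rho of 0.26 (exact permutation p = 0.658, adjusted 0.919). Hand2os1 and Tbx3os1 had an r of 0.28 (exact permutation p = 0.636, adjusted 0.636) and a rho of 0.09 (exact permutation p = 0.919, adjusted 0.919). Without wild-type replicates 6 and 3 r was -0.44 for Hand2os1 with 1010001N08Rik and -0.58 for Hand2os1 with Tbx3os1. The FPKM of all listed transcripts summed to 6391.6 in wild-type replicate 6 and up to 9688.2 in wild-type replicate 7. Rescaling to a common sum multiplies all 3 genes of a sample by the same factor, which can itself raise r. With each sample rescaled to a common sum, r was 0.81 for Hand2os1 with 1010001N08Rik, 0.70 for Hand2os1 with Tbx3os1 and 0.79 for 1010001N08Rik with Tbx3os1, with adjusted exact permutation p of 0.0875, 0.161 and 0.0875. On fragments per 1000000 the same pairs had an r of -0.48, -0.15 and 0.61, so the values depended on the scale. A common variation of the loci within wild type was thus not shown by 6 samples, where the smallest two-sided p for rho is 0.00278.

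**Figure D5:**
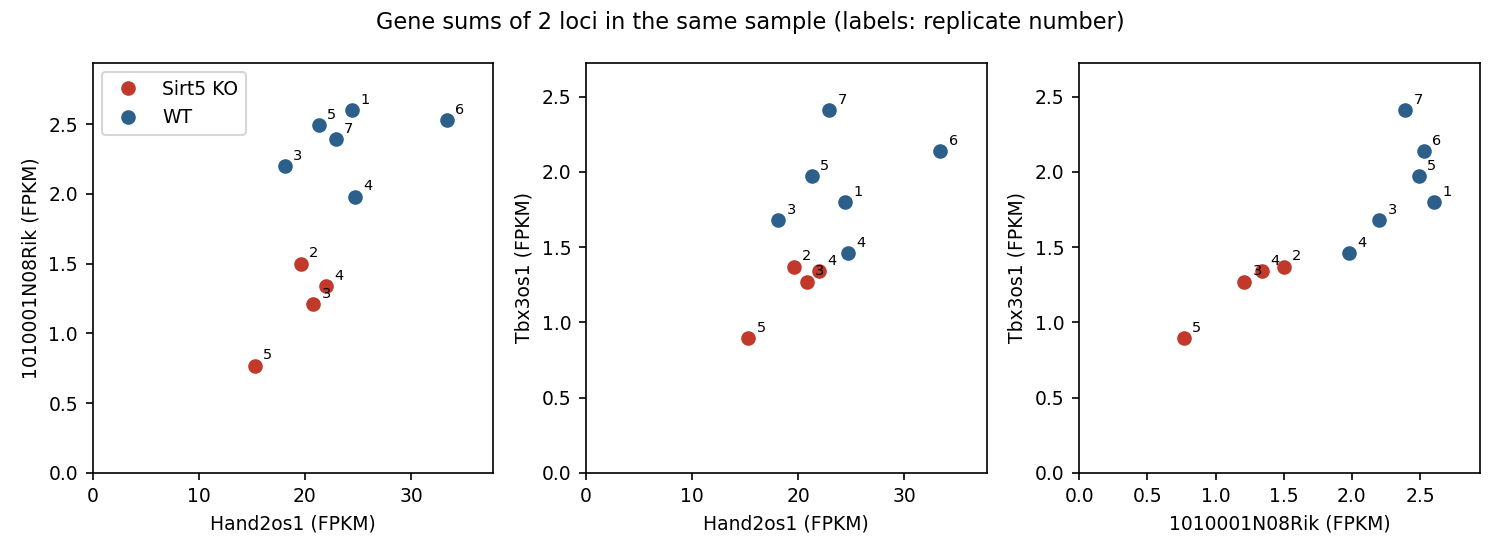
Summed FPKM of each pair of genes, 1 point a sample, with knockout and wild type in separate colours and replicate numbers beside the points. Knockout replicate 5 is the lowest point on every axis, and within the 6 wild-type samples no pair passed the permutation test.

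The genes whose values over the 10 samples were most like each member's were looked up among 258 annotated genes with a mean of at least 1 FPKM. The measure was Pearson's r of log2(FPKM + 1), as a description, and these samples share libraries and differ in genotype. For 1010001N08Rik these were Rmst (r = 0.91), a long non-coding RNA known from neural development, AC158975.2 (0.84) and Gm13111 (0.83). For Tbx3os1 they were Rmst (0.84), Gm31251 (0.84) and Gm13111 (0.83). For Hand2os1 they were AC158549.1 (0.83), Gm9899 (0.77) and Gm13111 (0.76). All of these genes were, like the 3 members, lowest in knockout replicate 5. There Rmst had 0.14, AC158975.2 0, Gm13111 0.268, Gm31251 0.311, AC158549.1 0.589 and Gm9899 0.06 FPKM. That library therefore weighs on every r, and r without it was not computed. Rmst had 0.552 ± 0.331 FPKM in knockout and 1.51 ± 0.342 FPKM in wild type (SD, n = 4 and 6), and its genotypes did not overlap. Those of AC158975.2 did not either, with at most 4.67 FPKM in knockout and at least 4.88 FPKM in wild type. Of the 1122 genes and loci with a mean of at least 1 FPKM, 2.14% lay wholly lower in knockout. Rmst and AC158975.2 were listed for likeness to genes chosen with knockout below wild type. That choice favours such a separation, so nothing is read from it.

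Gm13111, which is in the lists of all 3 genes, lies opposite Prdm16, a gene for a zinc finger regulator of heart muscle and brown fat. It had 0.787 ± 0.350 FPKM in knockout and 1.39 ± 0.257 FPKM in wild type (SD, n = 4 and 6), a log2 difference of -0.44 (limma adjusted p = 0.367), and its values overlapped. A list of 51 transcription factors of heart development was used to ask which other such genes the table holds. Apart from the 3 members, 31 genes lay opposite 27 of these factors, of which 13 had a lower and 13 a higher mean in knockout. Of the 10 with a mean of at least 0.1 FPKM, 6 were lower and 3 higher, with a median log2 difference of -0.10. Over all 3293 genes and loci with a mean of at least 0.1 FPKM, the median log2 difference was -0.01. Over the 1122 with a mean of at least 1 FPKM, a stricter filter, 623 were lower and 499 higher.

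Of the 31, the 3 with a mean of at least 1 FPKM were tested, and 0 passed limma at an adjusted p below 0.05, with 1 of them, Gm13111, at an unadjusted p below 0.05 (0.0180). Crnde, opposite Irx5, had 2.28 ± 0.404 FPKM in knockout and 2.07 ± 0.822 FPKM in wild type. B130024G19Rik, opposite Nr2f2, had 0.971 ± 0.611 FPKM in knockout and 1.28 ± 0.489 FPKM in wild type. 2310014F06Rik, opposite Tead1, averaged 0.931 FPKM in both, with an SD of 0.233 in knockout and 0.238 in wild type (n = 4 and 6). Gata5os, opposite Gata5, a gene for another GATA factor, reached at most 0.0101 FPKM.

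Gm43050, which starts 748 bases from Tbx5 on the opposite strand, was the 1 gene of the 10 whose genotypes did not overlap, where 1.34% of the 3293 genes and loci with a mean of at least 0.1 FPKM were wholly lower in knockout and 0.82% wholly higher. TBX5 is the T-box factor of Holt-Oram syndrome in humans, and its gene neighbours Tbx3 on chromosome 5. Gm43050 had 0.0394, 0.116, 0.0188 and 0.0623 FPKM in knockout replicates 2, 3, 4 and 5, against a lowest value of 0.140, a median of 0.423 and a highest of 0.886 FPKM in wild type. Its log2 difference was -0.45 (limma adjusted p = 0.506 over all 3293 genes and loci, of which 0.0304% passed as lower and 0% as higher). Unlike the summed FPKM of the 3 members, its FPKM was not lowest in knockout replicate 5. The remaining 6 of the 10 were 2610027K06Rik (Tbx2), Irx3os (Irx3), Gm16141 (Meis1), Gm10824 (Tcf21), A830082K12Rik (Nr2f1) and 2310014F06Rik, and their genotypes overlapped.

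Other genes of the table within 100 kb of the members were few and mostly low. Beside Hand2os1, 5033428I22Rik had 0.969 ± 0.0681 FPKM in knockout and 1.24 ± 0.509 FPKM in wild type, and Gm34030 had 1.73 ± 0.994 FPKM in knockout and 0.943 ± 0.746 FPKM in wild type (SD, n = 4 and 6). Gm34030 was thus higher on average in knockout, with overlapping samples. Beside Tbx3os1, Gm16064, Gm16063 and Gm31314 were listed at 0 in all 10 samples, Gm43399 reached 0.0810 FPKM and Tbx3os2 0.0147 FPKM. No neighbour was found for 1010001N08Rik.

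Few markers of other cell types could be read, and knockout replicate 5 was extreme in some. Carmn, a long non-coding RNA of smooth muscle and pericytes and the 1 of 4 such markers in the table, had 9.42 to 12.5 FPKM in knockout and 12.0 to 18.0 FPKM in wild type. Dnm3os, the 1 of 4 fibroblast markers, had 4.65 FPKM in knockout replicate 5, against 0.206 to 0.827 FPKM in the other knockout samples and 0.0839 to 0.801 FPKM in wild type. Ifi30, the 1 of 3 leukocyte markers, had 21.4 FPKM in knockout replicate 5, against 2.38 to 4.27 FPKM in the other knockout samples and 2.18 to 3.92 FPKM in wild type. Mhrt, the cardiomyocyte marker, was at its lowest of all 10 samples in knockout replicate 5, with 0.835 FPKM there, against 2.69 to 4.63 FPKM in the other knockout samples and 1.22 to 5.78 FPKM in wild type. The summed FPKM of Hand2os1, 1010001N08Rik and Tbx3os1 was also lowest in that library. Of 3 endothelial and 2 conduction system markers, 0 were in the table. The part of these cell types in the values of the 3 genes was not tested.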

How the data were processed

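Total RNA was depleted of rRNA and the second cDNA strand digested, per the series' design text. The authors then mapped reads to GRCm38 with HISAT2 and computed transcript FPKM with StringTie 1.2.0; that text names more than one rRNA removal kit and sequencer without assigning them to samples. The deposited table holds FPKM for 20741 transcripts, 18969 of which matched GENCODE M21. Here, FPKM were summed per gene, and 16 genes sharing a symbol with a higher one were dropped. Depth was estimated from the FPKM that 1 fragment is worth in single-exon transcripts over 800 bases, and covers counting only. The 1122 genes and loci with mean FPKM of at least 1 were fitted as log2(FPKM + 1) with limma 3.58.1 in R 4.3.3 (trend, genotype only, Benjamini-Hochberg, two-sided). Correlations used exact permutations with scipy 1.17.1, and tables used Python 3.11.15 with pandas 2.3.3. Simulated data served to test the limma step.

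The members and lists were chosen with earlier results of these data known. Named genes are the members, the 3 annotated genes most like each, genes opposite listed factors with mean FPKM of at least 0.1, and cell type markers; Rmrp, Malat1, Gata5os and the genes within 100 kb were named after their values were seen. Genes opposite a factor overlap it or start within 5000 bases of its start. Alternatives were the pseudocount, filters on low FPKM, scalings, the leading transcript alone, fragments per 1000000 mapped (FPKM times length), leaving out each sample and the replicate block. Groups and replicate numbers came from sample titles.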

Additional observations from a re-analysis of the deposited data

Results flagged for a closer look

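Among 62 groups of values checked for a sample far from the others, 6 held one. Chance gives about 1 in 20 for normally distributed values, which isoform FPKM with many zeros are not. Of the 6 wild-type samples, Tbx3os1-202 was at 0 in 4 and Tbx3os1-204 in 5. The 6 of 62 are therefore not read as an excess. Hand2os1-236 had 3.68 FPKM in knockout replicate 2, above 1.43 to 1.78 FPKM in the other knockout samples. Hand2os1-233 was at 0 in wild-type replicate 6, below 1.35 to 2.14 FPKM in the other wild-type samples. 1010001N08Rik-204 had 0.472 FPKM in knockout replicate 3, above 0.116 to 0.171 FPKM in the other knockout samples. Tbx3os1-202 had 0.345 FPKM in wild-type replicate 3, above 0 to 0.113 FPKM in the other wild-type samples. Tbx3os1-204 had 0.152 FPKM in wild-type replicate 4 and was at 0 in all other samples. A830082K12Rik, opposite Nr2f1, had 0.954 FPKM in wild-type replicate 4, above 0.354 to 0.484 FPKM in the other wild-type samples. Of these, 5 are single isoforms, and no gene sum of Hand2os1, 1010001N08Rik or Tbx3os1 had such a sample.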

How the results depend on the processing

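The log2 differences of the 3 gene sums kept their sign under every alternative run, which the separation of 1010001N08Rik and Tbx3os1 fixes when a sample is left out. Leaving out 1 sample gave -0.36 to -0.18 for Hand2os1, -0.68 to -0.52 for 1010001N08Rik and -0.44 to -0.31 for Tbx3os1. With a pseudocount of 0.1 the difference was -0.95 for 1010001N08Rik and -0.61 for Tbx3os1, since a smaller pseudocount shrinks low values less. For the leading transcript alone it was -0.66 (Hand2os1-206) and -0.38 (1010001N08Rik-203). The count of members with knockout wholly below wild type (2) became 1 after median-of-ratios scaling, quantile normalization or on fragments per 1000000, and 0 for leading transcripts; leaving out a sample cannot lower it. limma's 2 calls became 1 with a filter at 0.1 FPKM, 7 with a common sum per sample, 4 after quantile normalization, and 0 with no filter (unadjusted p below 0.05: 209 lower, 220 higher) or with the replicate block (64 lower, 39 higher). Leaving out 1 sample gave 0 to 2 calls, with 0 without knockout replicate 2 (65 lower, 48 higher) and 1 without wild-type replicate 3, 4, 5, 6 or 7. A common sum moved the median of all log2 differences to -0.14 and the split at an unadjusted p below 0.05 to 147 lower and 11 higher, against 85 and 45 with median-of-ratios scaling and 74 and 47 with quantile normalization. The wild-type r of Hand2os1 with 1010001N08Rik was 0.81 with a common sum, 0.61 with median-of-ratios scaling, 0.21 after quantile normalization, -0.06 for leading transcripts and -0.48 on fragments per 1000000, and ran from 0.05 to 0.70 without 1 sample. That of Hand2os1 with Tbx3os1 was 0.70 with a common sum, 0.53 with median-of-ratios scaling, 0.41 after quantile normalization, and -0.15 on fragments per 1000000, and ran from -0.01 (without wild-type replicate 6) to 0.47. That of 1010001N08Rik with Tbx3os1 was 0.79 with a common sum, 0.80 with median-of-ratios scaling and 0.73 after quantile normalization, and ran from 0.23 to 0.86. The smallest adjusted exact permutation p under any alternative was 0.0875. The causes of the other changes were not tested. Replicate numbers 3, 4 and 5 occur in both genotypes. Samples sharing one correlated at -0.163, 0.176 and 0.081 in their deviations over 1122 genes and loci. Samples of unlike number were not compared, so these values neither show nor exclude a pairing. The replicate block gave log2 differences of -0.14, -0.62 and -0.32 for Hand2os1, 1010001N08Rik and Tbx3os1. These rest on replicates 3, 4 and 5 of each genotype alone. Knockout replicate 2 and wild-type replicates 1, 6 and 7 do not enter, so blocking and the loss of samples cannot be told apart. Depth limits 1010001N08Rik and Tbx3os1 most, with at most 69 and 53 estimated fragments a sample.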
